A study of Mus musculus with 2 samples.

Results

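The Kcn genes encode the pore-forming and auxiliary subunits of potassium channels, together with the antisense RNA Kcnq1ot1. All genes of the count table whose symbol starts with Kcn were taken, which gave 39 of 14714 genes. Of these, 13 encode pores or silent subunits of voltage-gated (Kv) channels, 6 encode Kv auxiliary subunits and 6 encode inward rectifiers. A further 5 encode tandem-pore-domain channels, 3 encode small- or intermediate-conductance calcium-activated channels and 2 encode sodium-activated channels. Large-conductance calcium-activated (BK) channels were represented by 1 pore gene and 2 auxiliary genes, and 1 member is a non-coding RNA.

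Potassium channels set the resting membrane potential of arterial smooth muscle. When they open, potassium leaves the cell, the membrane hyperpolarizes, voltage-gated calcium channels close and the muscle relaxes. BK and Kv channels oppose constriction, ATP-sensitive channels link the potential to metabolism, and small- and intermediate-conductance calcium-activated channels act in endothelium. Auxiliary subunits tune the calcium or voltage sensitivity, trafficking and inactivation of the pores.

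The data were single-cell RNA counts from digested mouse aortas after 12 weeks of western diet. There was 1 library of Apoe-/- mice, and 1 of EC-iDKO/Apoe-/- mice, an inducible endothelial double knockout that also carries the Apoe knockout, below the double knockout. Thus both groups lack Apoe, and no library had Apoe intact. The deleted genes, the promoter that drives the deletion, the age of the mice and the number of mice behind a library are not given in the sources used here.

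Each value below is a sum of unique molecular identifiers (UMIs, 1 per captured RNA molecule) over the cells of 1 library and population. Levels are counts scaled to 1000000 UMIs of that population (CPM). With 1 library per genotype no difference has a replicate check and there is no test. Intervals are exact 95% Poisson intervals for a level and exact conditional binomial intervals for a ratio. They cover counting error only, so a ratio compares 2 libraries and not 2 genotypes. A gene was called higher or lower where the CPM ratio of the libraries was at least 1.5 either way, its interval did not hold 1, and the gene had at least 20 UMIs over both libraries. UMIs from 3' tags are not scaled by transcript length, so the levels of different genes are not ranked against each other.

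The Apoe knockout library had 2428 cells and 13304762 UMIs with a median of 3770 UMIs per cell. The double knockout library had 5489 cells and 6853185 UMIs with a median of 769 per cell. Cells keep the class and cluster number the authors deposited: SMC (smooth muscle), EC (endothelial), modEC, fibroblast and immune/inflam. Smooth muscle below means the SMC class without cluster 15, which held adipocyte genes. It had 1516 and 4348 cells, with a median of 4892 UMIs per cell in the Apoe knockout versus 769.5 in the double knockout. Some class names went against marker genes: the 12 endothelial markers summed to 189 and 275 CPM in modEC cluster 8, against 132 and 162 CPM in smooth muscle and 2573 and 4494 CPM in EC cluster 9. Fibroblast markers in deposited fibroblast cluster 14 summed to 3425 and 1970 CPM, below the 28630 and 8767 CPM of modEC cluster 8. These clusters are therefore called by number. EC cluster 9 itself held contractile genes, whose median was 58.5% and 55.1% of that in smooth muscle.

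Over the whole libraries, Kcn genes took 11373 UMIs or 855 CPM (839 to 871) in the Apoe knockout and 5159 UMIs or 753 CPM (732 to 774) in the double knockout. The ratio of double knockout to Apoe knockout was 0.881 (0.852 to 0.910). In smooth muscle the level was 918 CPM (898 to 939) against 778 CPM (755 to 802), a ratio of 0.847 (0.816 to 0.880). Cells of at least 1000 UMIs were also thinned at random to 1000 UMIs, and cells below that were left out. This kept 1421 of 1516 Apoe knockout and 1500 of 4348 double knockout smooth muscle cells, and the smooth muscle ratio was 0.865. The lower total was therefore also present at equal depth among these deeper cells, a selection that was stronger in the double knockout.

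The composition of the Kcn signal in smooth muscle also differed between the libraries. Kv pores and silent subunits took 24.4% (Clopper-Pearson interval 23.4 to 25.3) of Kcn UMIs in the Apoe knockout versus 16.5% (15.4 to 17.7) in the double knockout. In CPM these genes summed to 223.7 and 128.6. Inward rectifiers took 12.5% and 18.2%, or 114.5 and 141.9 CPM. BK auxiliary subunits took 27.1% and 22.5%, while Kv auxiliary subunits took 9.64% and 11.1%. The non-coding Kcnq1ot1 took 11.15% and 15.87%. Kcnj15 alone held 681 of 981 and 523 of 778 inward rectifier UMIs. Over all smooth muscle cells, Kv pores and BK auxiliary subunits thus had a lower share in the double knockout. Inward rectifiers and Kcnq1ot1 had a higher share. In cells thinned to 1000 UMIs, Kcnq1ot1 had 135.8 and 124 CPM, of Kcn totals of 900 and 779 CPM. Its level was thus not higher in the double knockout at equal depth, and the shares were not recomputed at that depth.

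In smooth muscle 22 of the 39 members reached 20 UMIs. Of these, 4 were lower in the double knockout, all of them Kv pores, against 7.67% of all genes tested the same way. Kcne4 alone was higher, against 9.87% of all genes. The median log2 ratio was -0.13 over the 22 members and 0.03 over all genes tested. Over whole libraries, which also differ in their cell types, 10 of 30 members tested were lower (13.1% of all genes) and 1 was higher (Kcnk1, against 9.53% of all genes). The members nearest the 20 UMI minimum in smooth muscle were Kcnn1 with 19 UMIs just under it and Kcnk1 with 23 just above.

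**Figure D1:**
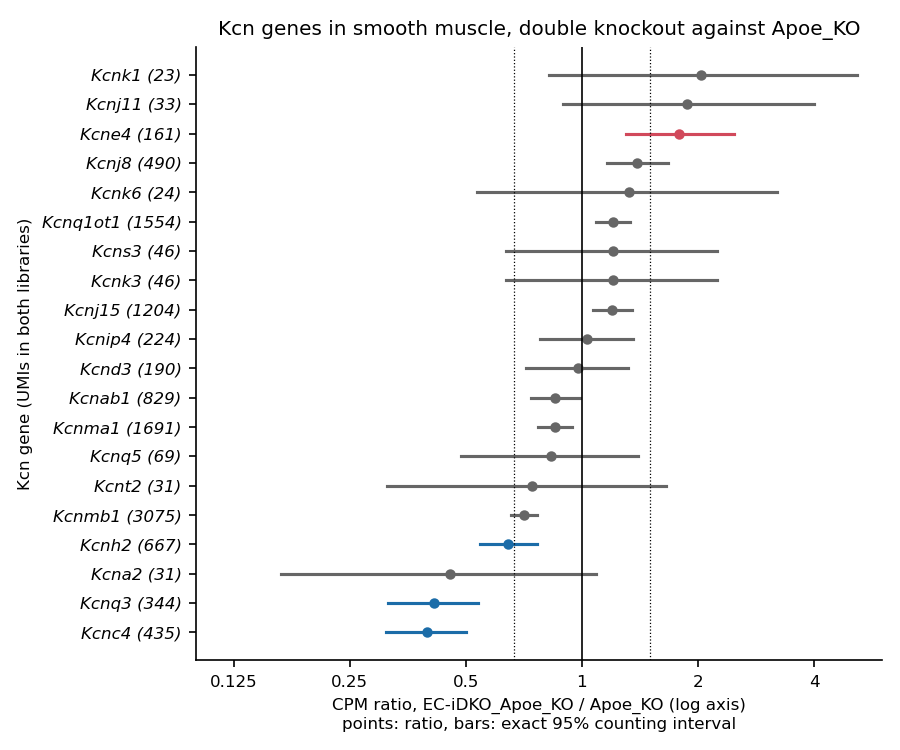
CPM ratio of the double knockout to the Apoe knockout in smooth muscle for 20 of the 22 Kcn genes with at least 20 UMIs, on a log axis, with exact 95% counting intervals and the UMIs over both libraries in brackets. Dotted lines mark the ratio of 1.5 either way, blue marks genes called lower and red genes called higher: Kcnc4, Kcnq3 and Kcnh2 lie at 0.396 to 0.645 and Kcne4 at 1.79.

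BK channels combine the pore subunit Kcnma1 with the smooth muscle auxiliary subunit Kcnmb1, which raises the calcium sensitivity of the pore. In smooth muscle Kcnmb1 had 2117 and 958 UMIs, or 247 CPM in the Apoe knockout and 175 CPM in the double knockout. The ratio was 0.707 (0.654 to 0.763), which did not reach the 1.5-fold limit, and it was 0.751 (0.636 to 0.886) in thinned cells. The Kcnmb1 ratio was below 1 in all 11 smooth muscle clusters compared, with an interval below 1 in 7 of them. The clusters ranged from 200 CPM in cluster 4 to 299 in cluster 17 in the Apoe knockout, and from 151 in cluster 4 to 241 in cluster 11 in the double knockout. Cluster 0 had 260 and 161 CPM, a ratio of 0.619, while cluster 11 had 247 and 241 CPM, a ratio of 0.975. Kcnmb1 lies at chr11:33963013-33973641 on the plus strand of GRCm38 and overlaps Kcnip1 on the other strand.

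The pore gene Kcnma1 (chr14:23289431-24014491, minus strand) had 1095 and 596 UMIs in smooth muscle, or 128 and 109 CPM, a ratio of 0.850 (0.768 to 0.940). In thinned cells the ratio was 0.931 (0.747 to 1.16), an interval that holds 1. Its clusters differed in direction: cluster 2 had 173 and 104 CPM, a ratio of 0.602 (0.419 to 0.863), and cluster 5 had 126 and 160 CPM, a ratio of 1.27 (0.959 to 1.66). The pore gene was thus lower in the double knockout in 9 of 11 clusters, with an interval below 1 in clusters 0 and 2. Kcnmb4, a BK auxiliary subunit known mainly from neurons, had 23 UMIs in the Apoe knockout library and 3 in the double knockout library.

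The UMI ratio of Kcnmb1 to Kcnma1 can be compared between populations, although it is not a subunit ratio. In smooth muscle it was 1.93 (1.80 to 2.08) in the Apoe knockout versus 1.61 (1.45 to 1.78) in the double knockout. Within the Apoe knockout, cluster 12 stood at 3.08 and cluster 2 at 1.21. In cluster 5 the ratio was 1.94 (1.58 to 2.38) in the Apoe knockout versus 1.00 (0.733 to 1.36) in the double knockout, so these intervals did not overlap. Outside smooth muscle the ratio was 0.631 (0.439 to 0.900) in modEC cluster 10 of the Apoe knockout, which held chondrocyte-like genes at 30420 CPM, and 0.907 (0.672 to 1.22) in modEC cluster 8. Pore and auxiliary UMIs therefore did not fall in step between clusters.

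**Figure D2:**
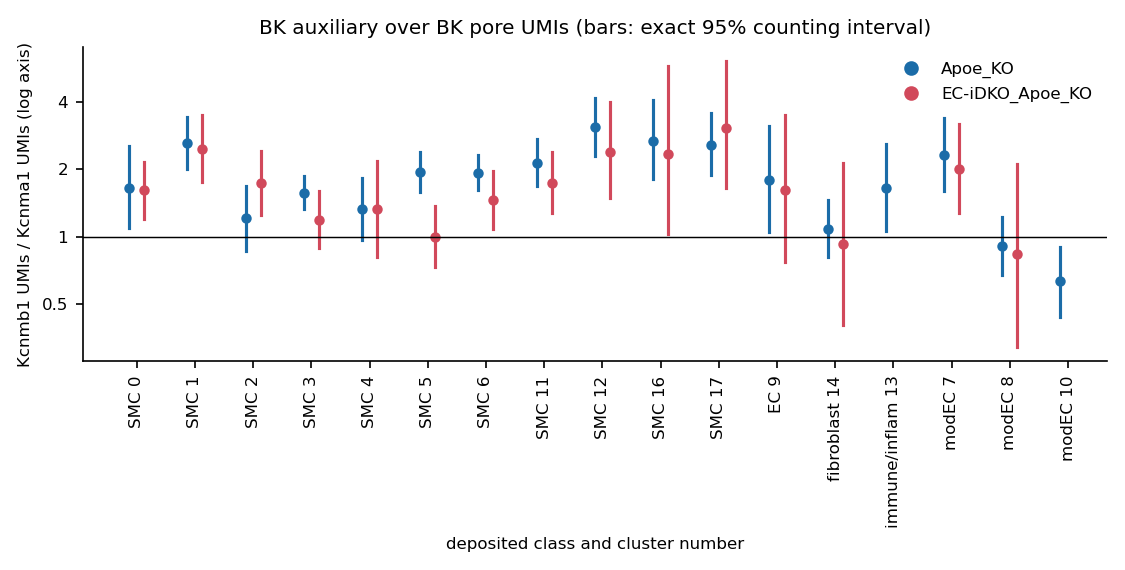
UMIs of the BK auxiliary gene Kcnmb1 over UMIs of the BK pore gene Kcnma1 on a log axis, by deposited class and cluster, with exact 95% counting intervals, for populations with at least 20 UMIs of the genes together and at least 50 cells. In the Apoe knockout (blue) smooth muscle cluster 12 lies at 3.08 and modEC cluster 10 at 0.631; in smooth muscle cluster 5 the double knockout (red) lies at 1.00 against 1.94.

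The BK genes were also set against the contractile genes. In modEC cluster 10 of the Apoe knockout the median contractile gene had 47.2% of its level in smooth muscle and Kcnmb1 had 36.2%, while Kcnma1 stood at 111% (87.6 to 138). In the double knockout these values were 73.9%, 43.0% (13.9 to 101) and 83.0% (30.4 to 182), from few UMIs. In modEC cluster 8, with high matrix genes, contractile genes stood at 26.2% and 37.1%, Kcnmb1 at 23.4% and 28.1%, and Kcnma1 at 49.9% and 54.2%. In the Apoe knockout Kcnma1 lay above the contractile genes in both clusters, while in the double knockout its intervals held the contractile median.

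The voltage-gated pores open on depolarization and oppose it. Kcnc4 encodes a fast, A-type pore of the Shaw family (chr3:107438303-107459552, minus strand). It had 347 and 88 UMIs, or 40.5 and 16.0 CPM, in smooth muscle, a ratio of 0.396 (0.310 to 0.502) that was 0.534 (0.332 to 0.844) in thinned cells. The difference was uneven over clusters. Cluster 5 had 50 and 2 UMIs, or 43.2 and 3.72 CPM, a ratio of 0.086 (0.0101 to 0.327). Cluster 17 had 7 and 7 UMIs, or 14.2 and 33.7 CPM, and was the only 1 of 11 clusters above 1, with an interval of 0.709 to 7.92 that holds 1.

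Kcnq3 encodes a pore of the M-current family better known from neurons (chr15:65986387-66286642, minus strand). It had 272 and 72 UMIs in smooth muscle, or 31.8 and 13.1 CPM, a ratio of 0.413 (0.314 to 0.538) and of 0.353 (0.197 to 0.608) in thinned cells. It was lower in 10 of 11 clusters, with 43.8 and 10.2 CPM in cluster 3. Cluster 1, where the Apoe knockout level was lowest, had 15.5 and 16.7 CPM and was the only 1 above 1. Kcnq5, another M-current pore, had 45 and 24 UMIs, and its ratio of 0.833 (0.485 to 1.4) was not separated from 1 by counting error.

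Kcnh2 encodes the ERG pore, which carries a delayed rectifier current in heart (chr5:24319589-24351604, minus strand). It had 472 and 195 UMIs in smooth muscle, or 55.1 and 35.6 CPM, a ratio of 0.645 (0.543 to 0.764). Thinned cells gave 0.834 (0.578 to 1.20), so the call was lost at equal depth. Clusters 5 and 3 had the lowest ratios, 0.453 and 0.456, and cluster 1 had 1.02. Kcnd3, an A-type pore, had 117 and 73 UMIs, or 13.7 and 13.3 CPM, and showed no difference beyond counting error. Among the pores with few UMIs, Kcna2 had 24 and 7 and the silent subunit Kcns3 had 26 and 20. Kcna5, a pore often described in arterial muscle, had 11 UMIs in smooth muscle over both libraries, too few for a comparison.

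**Figure D3:**
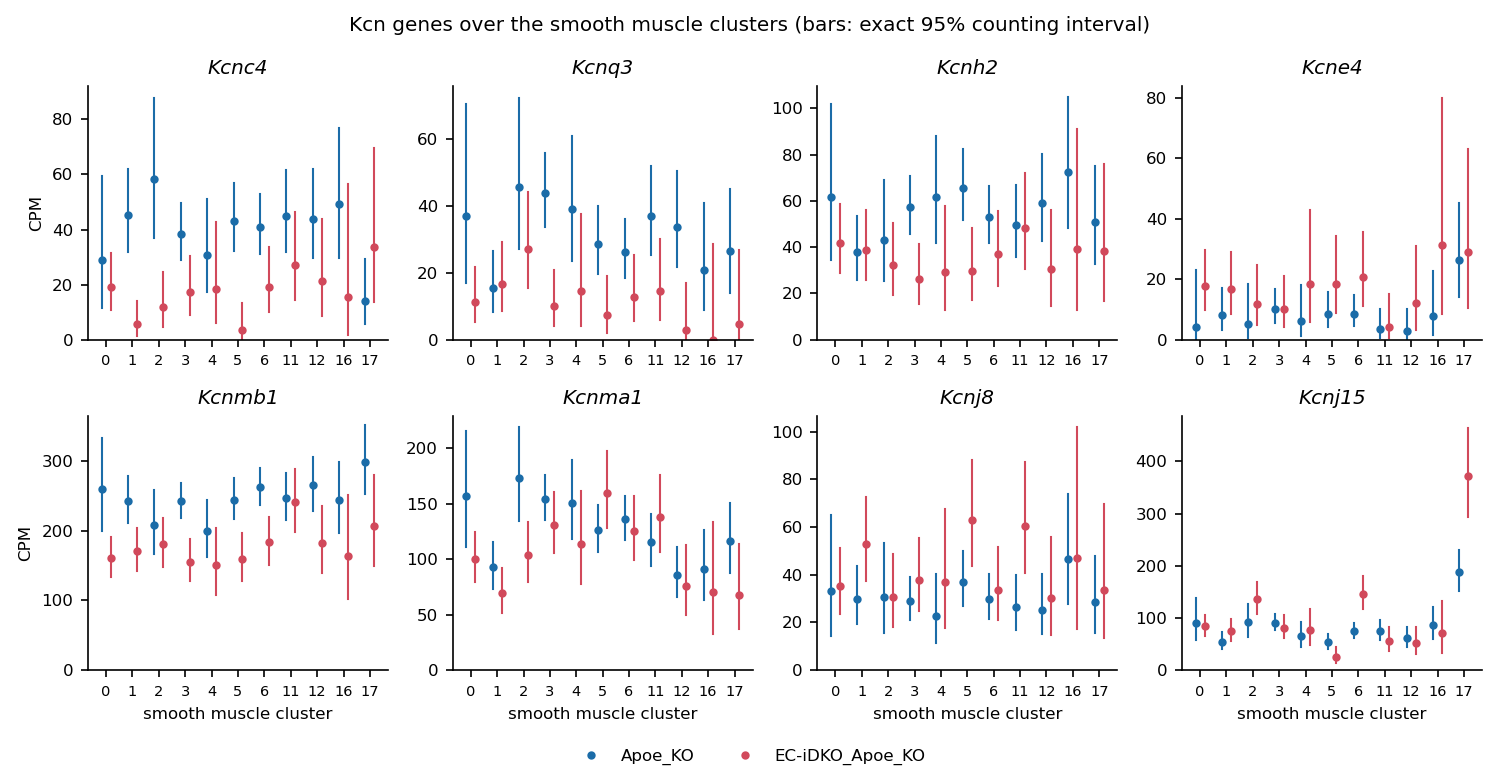
CPM of 8 Kcn genes in each of the 11 smooth muscle clusters, Apoe knockout in blue and double knockout in red, with exact 95% counting intervals on linear axes that start at 0. Kcnmb1 lies lower in the double knockout in all 11 clusters, and Kcnj15 in cluster 17 reaches 187 and 371 CPM.

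By cluster, cluster 5 held the most members called lower, 6 of 13 tested (Kcnc4, Kcnh2, Kcnmb1, Kcnq3 and Kcnj15 among them, against 5.43% of all genes), with Kcnj8 called higher (7.91% of all genes). Cluster 3 followed with 5 of 14 lower (6.06% of all genes, the cluster 5 genes without Kcnj15) and none higher (9.71%). Cluster 2 had 4 of 10 lower, Kcnc4, Kcnma1 and Kcnq1ot1 among them (8.74%), and none higher (8.25%). Cluster 0 had 3 of 11 lower, Kcnmb1 and Kcnma1 among them (7.69%), and none higher (6.4%). Cluster 6 differed, with Kcne4, Kcnq1ot1 and Kcnj15 called higher among 14 tested (7.15%) and Kcnc4 lower (5.83%). Clusters 1, 11 and 12 had 1 lower each, of 12, 12 and 11 tested (8.47%, 4.91% and 5.29% of all genes). In clusters 4, 16 and 17 none of 10, 8 and 8 tested was lower (7.94%, 5.64% and 6.09%). Higher calls in these clusters were Kcnj8 in clusters 1 and 11 (7.43% and 9.18%) and Kcnj15 in cluster 17 (8.41%). Cluster 5 also had a high pericyte marker sum, 7379 and 6356 CPM, against 2905 and 2018 CPM in smooth muscle as a whole. Most of it was Rgs5 (6647 and 5643 CPM), so the sum says little of the other pericyte markers. Median UMIs per cell there were 6230 and 1614.5. The part of depth and of the pericyte marker sum in the cluster 5 values was not tested.

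Kv auxiliary subunits bind the pores and alter gating or trafficking. Kcnab1, a cytosolic beta subunit related to oxidoreductases (chr3:65109384-65378223, plus strand), had 536 and 293 UMIs in smooth muscle, or 62.6 and 53.4 CPM. Its ratio was 0.854 (0.738 to 0.986), and 1.04 (0.761 to 1.43) in thinned cells. Smooth muscle held 81.0% and 89.6% of its UMIs, beside 64.4% and 80.0% for all genes and close to the 81.2% and 87.9% of Kcnmb1. Kcnip4, which binds A-type pores, had 135 and 89 UMIs, or 15.8 and 16.2 CPM, a ratio of 1.03, and of 0.772 (0.419 to 1.41) in thinned cells.

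Kcne4 encodes a single-span subunit that modulates Kv pores (chr1:78816758-78820028, plus strand). It had 75 and 86 UMIs in smooth muscle, or 8.76 and 15.7 CPM, a ratio of 1.79 (1.30 to 2.48). The ratio was above 1 in all 11 clusters, with an interval above 1 in cluster 6. In cells thinned to 1000 UMIs it was 1.14 (0.541 to 2.42) from 15 and 18 UMIs, so the call was lost at that depth. Smooth muscle held 49.0% and 83.5% of its UMIs, beside 64.4% and 80.0% of the UMIs of all genes.

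Inward rectifiers pass potassium near the resting potential. Kcnj8 encodes the pore of the vascular ATP-sensitive channel, whose sulfonylurea receptor is encoded by Abcc9. The genes are neighbours on chromosome 6, with Kcnj8 at chr6:142564837-142571614 and Abcc9 at chr6:142587862-142702315, both on the minus strand and 16247 bases apart. In smooth muscle Kcnj8 had 259 and 231 UMIs, or 30.2 and 42.1 CPM, a ratio of 1.39 (1.16 to 1.67). Thinned cells gave 1.79 (1.17 to 2.77), which met the rule for a higher level. All 11 clusters stood above 1, cluster 16 only barely, with intervals above 1 in clusters 1, 5 and 11. Cluster 11 had 26.5 and 60.7 CPM, a ratio of 2.29 (1.28 to 4.14). Abcc9 had 1600 and 1234 UMIs, or 187 and 225 CPM, a ratio of 1.2 (1.12 to 1.30). Both genes of the channel thus stood higher in the double knockout, and neither met the rule of 1.5 without thinning.

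Kcnj11, the other ATP-sensitive pore and the one known from heart and pancreas, had 15 and 18 UMIs in smooth muscle, a ratio of 1.87 (0.892 to 4.00) that counting error does not separate from 1. Kcnj12, a strong inward rectifier, had 18 UMIs there over both libraries and Kcnj13 had 13.

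Kcnj15, an inward rectifier described mainly in epithelia (chr16:95257558-95300260, plus strand), varied widely between smooth muscle clusters. Over smooth muscle it had 681 and 523 UMIs, or 79.5 and 95.4 CPM, a ratio of 1.20 (1.07 to 1.35) and of 1.47 (1.12 to 1.94) in thinned cells. Cluster 17 had 187 and 371 CPM, which was 2.57 times (2.04 to 3.20) and 4.39 times (3.40 to 5.60) the level in the rest of smooth muscle. Cluster 5 had 53.6 and 26.0 CPM, or 0.64 times (0.49 to 0.83) and 0.25 times (0.14 to 0.43) the rest. By CPM both libraries thus placed cluster 17 high and cluster 5 low. At 1000 UMIs per cell, a Kcnj15 UMI was found in 27.1% (16.4 to 40.3) of cluster 17 cells of the double knockout against 120 of 1500 smooth muscle cells. In the Apoe knockout it was found in 3 of 50 cluster 17 cells, 6% (1.26 to 16.6), against 5.77% of smooth muscle. That interval is too wide to tell whether cluster 17 stood high there at equal depth. Pericyte markers ran the other way, at 946 and 824 CPM in cluster 17. Between libraries Kcnj15 was called higher in clusters 17 and 6, with ratios of 1.98 (1.45 to 2.71) and 1.95 (1.46 to 2.60), and lower in cluster 5 at 0.485 (0.251 to 0.877). In cluster 17 it was the only 1 of 8 members tested that was called higher (8.41% of all genes), and none was called lower (6.09%).

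Kcnq1ot1 is a nuclear non-coding RNA transcribed antisense to the channel gene Kcnq1 and known for imprinting in its neighbourhood (chr7:143203458-143296549, minus strand). In smooth muscle it had 877 and 677 UMIs, or 102 and 123 CPM, a ratio of 1.21 (1.09 to 1.33). Cells of at least 1000 UMIs and under 10% mitochondrial UMIs gave 1.30 (1.15 to 1.46), while those thinned to 1000 UMIs gave 0.913 (0.742 to 1.12). The direction held in 5 of 7 alternative settings, including every deposited row, which only copies cells and cannot change a ratio. Cluster 2 had 254 and 167 CPM, a ratio of 0.657 (0.492 to 0.877), and was 2.67 times the rest of smooth muscle in the Apoe knockout. Cluster 6 had 65.1 and 106 CPM, a ratio of 1.63 (1.17 to 2.26). In EC cluster 9 it had 29 and 57 UMIs, or 109 and 226 CPM. Without Kcnq1ot1 the Kcn total over whole libraries was 735 and 621 CPM.

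The sequences just upstream of the start are shown for 4 members with unlike patterns: Kcnmb1 and Kcnh2, lower in the double knockout, Kcnj8, higher, and Kcnj15, which varied between clusters. Each is the 90 bases before a RefSeq transcript start on GRCm38.p6, written 5' to 3' on the gene's strand, and none overlaps a GENCODE exon. Capitals mark GC boxes (GGGCGG on either strand). The Kcnmb1 stretch is chr11:33962923-33963012 (plus), Kcnj8 chr6:142571615-142571704 (minus), Kcnj15 chr16:95257468-95257557 (plus), and Kcnh2 chr5:24329592-24329681 (minus), which lies in an intron of the full-length gene, before an internal start.
Kcnmb1: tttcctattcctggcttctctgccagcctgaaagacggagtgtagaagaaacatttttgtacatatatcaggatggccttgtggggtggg
Kcnj8: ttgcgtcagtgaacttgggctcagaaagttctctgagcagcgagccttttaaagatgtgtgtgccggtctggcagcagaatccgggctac
Kcnj15: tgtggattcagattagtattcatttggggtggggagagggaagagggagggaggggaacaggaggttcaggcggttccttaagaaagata
Kcnh2: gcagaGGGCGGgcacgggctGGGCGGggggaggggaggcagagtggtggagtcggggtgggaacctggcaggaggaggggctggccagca

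Of the 39 members 31 matched the RefSeq table of 300-base windows, 250 bases before to 50 after a start. GC boxes lay in 13 of the 31 (41.9%), against 38.2% of 27025 genes. The median GC content was 57.7% for member windows and 52.8% for all genes, and the windows of the 4 genes shown held 49.7% (Kcnmb1), 53.3% (Kcnj8), 49.7% (Kcnj15) and 74.3% (Kcnh2). The CArG box, bound by serum response factor, matched in 0 of 31 against 1.81% of genes. The cyclic AMP element TGACGTCA, searched in the same windows on both strands, matched in 0 of 31 against 2.03%. These letters not being in the windows says nothing about the factors.

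Cluster 14, deposited as fibroblast, had the highest Kcn level of the populations compared, 1311 CPM in 95 Apoe knockout cells and 1107 CPM in 54 double knockout cells. Its pericyte marker sum, 4901 and 2476 CPM, which includes Abcc9, was above that of smooth muscle. Macrophage markers summed to 63.5 CPM in the Apoe knockout and all 11 were at 0 in the double knockout. Clusters were made by the authors from the same counts, so values between clusters describe them and test nothing.

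The inward rectifiers Kcnj15 and Kcnj8 stood high in cluster 14. Kcnj15 had 127 and 33 UMIs, or 244 and 310 CPM, which was 3.07 times (2.52 to 3.72) and 3.25 times (2.21 to 4.62) the smooth muscle level. Kcnj8 had 58 and 11 UMIs, or 112 and 103 CPM, which was 3.69 times (2.72 to 4.92) and 2.45 times (1.21 to 4.46) the smooth muscle level. Abcc9 had 144 and 29 UMIs there, or 277 and 272 CPM, beside 187 and 225 CPM in smooth muscle. The ATP-sensitive pore was thus above smooth muscle in this cluster in both libraries. No interval against smooth muscle was computed for its receptor, whose double knockout values lay close together and rested on few UMIs.

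Kcnc4 also stood out there, with 75 and 8 UMIs, or 144 and 75.0 CPM, 3.56 and 4.68 times smooth muscle. At 1000 UMIs per cell, 19 of the cluster's 95 Apoe knockout cells held a Kcnc4 UMI, against 3.52% of smooth muscle cells. Kcnk3 encodes an acid-sensitive tandem-pore channel that carries a background current (chr5:30588170-30625271, plus strand). It had 32 UMIs in the Apoe knockout cluster, 61.5 CPM or 20.3 times (11.7 to 35.4) smooth muscle, and 1 UMI in the double knockout cluster. The ratio of the libraries was 0.152 (0.00374 to 0.913), so it was called lower, 1 of 9 members tested (5.46% of all genes), with none higher (6.4%).

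Other members were low in cluster 14. Kcnab1 had 6 UMIs in the Apoe knockout, 11.5 CPM or 0.18 times (0.07 to 0.40) smooth muscle, and Kcnh2 had 9 UMIs, 17.3 CPM or 0.31 times. Kcnma1 was at 177 and 131 CPM, 138% (111 to 171) of smooth muscle in the Apoe knockout, and Kcnmb1 at 77.8%. Only part of the smooth muscle channel set was therefore raised there.

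**Figure D4:**
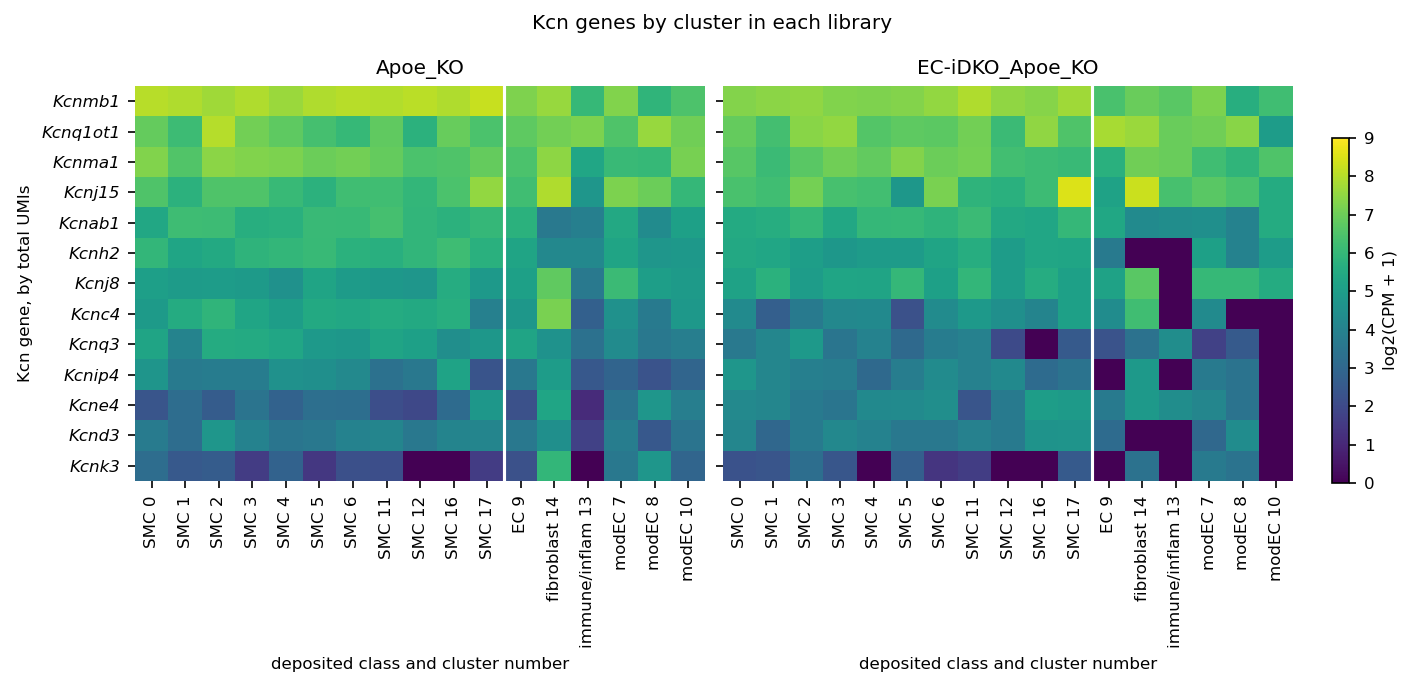
log2(CPM + 1) of 13 of the 15 Kcn genes with at least 100 UMIs over both libraries, by deposited class and cluster in each library, for clusters of at least 50 cells in both libraries; the white line parts smooth muscle from the rest. In the Apoe knockout Kcnj15, Kcnj8, Kcnc4 and Kcnk3 are bright in fibroblast cluster 14, where Kcnab1 is dark. In the double knockout Kcnk3 is dark there as well.

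A separate set of members lay mostly outside smooth muscle. Kcnn4 encodes the intermediate-conductance calcium-activated pore of blood cells and endothelium (chr7:24370263-24386690, plus strand). In immune/inflam cluster 13, which held macrophage markers at 16620 and 4814 CPM, it had 45 and 2 UMIs, or 52.0 and 41.0 CPM. In smooth muscle of the Apoe knockout it had 0.467 CPM, so the cluster stood 111 times (40.6 to 426) higher. Only 5.33% and 11.1% of its UMIs lay in smooth muscle. In the endothelial clusters of the double knockout it had 6 UMIs in cluster 9, 23.8 CPM, and 7 UMIs in cluster 19, 67.9 CPM. All 11 macrophage markers were at 0 in cluster 19 of the double knockout, and they summed to 19.9 CPM in cluster 9.

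Kcnk13, a tandem-pore channel found in microglia and macrophages (chr12:99964499-100062682, plus strand), had 17 UMIs in cluster 13 of the Apoe knockout, 19.7 CPM, and 1 UMI in the double knockout. Smooth muscle had 0 UMIs in both libraries, so against a floor of 3 UMIs over Apoe knockout smooth muscle the level in cluster 13 was at least 56.1-fold higher. Kcnab2, a beta subunit, had 12 of its UMIs there, 13.9 CPM, and 1 in smooth muscle. Kcnj10, an inward rectifier of glia, had 7 there and 0 in Apoe knockout smooth muscle.

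BK subunits were low in cluster 13 of the Apoe knockout, with Kcnmb1 at 26.2% (19.7 to 34.2) and Kcnma1 at 30.7% of smooth muscle, beside contractile genes at 25.3%. In the double knockout the cluster held contractile genes at 65.8% and Kcnma1 at 113%. Kcnma1 had 34 and 6 UMIs there and was called higher in the double knockout with a ratio of 3.13 (1.07 to 7.53), 1 of 5 members tested (8.33% of all genes), with none lower (5.62%). The contractile sum moved with it, from 14910 to 42010 CPM, and its part in the result was not tested.

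In EC cluster 9, with 96 and 287 cells, Kcnt2 and Kcnn3 stood above smooth muscle in both libraries. Kcnt2, a sodium-activated pore (chr1:140246158-140612067, plus strand), had 12 and 5 UMIs, or 44.9 and 19.9 CPM, 18.3 times (8.22 to 39.0) and 10.9 times (2.92 to 35.0) smooth muscle. Kcnn3, a small-conductance calcium-activated pore known from endothelium, had 5 and 3 UMIs, or 18.7 and 11.9 CPM, and a further 4 UMIs in cluster 19 of the double knockout, 38.8 CPM. Both calcium-activated pores of endothelial hyperpolarization, Kcnn3 and Kcnn4, were thus counted in the endothelial clusters, from few UMIs. Between libraries, Kcnmb1 in cluster 9 had 41 and 21 UMIs, or 154 and 83.4 CPM, and was called lower with a ratio of 0.543 (0.305 to 0.941), 1 of 5 members tested (8.79% of all genes). Kcnq1ot1 was called higher at 2.09 (1.31 to 3.38), also 1 of 5 (7.2% of all genes). In cluster 9 Kcnmb1 stood at 62.1% (44.45 to 84.6) and 47.8% (29.4 to 73.4) of smooth muscle, beside contractile medians of 58.5% and 55.1%. Macrophage markers also differed in this cluster, 2304 against 19.9 CPM. The part of contractile and macrophage RNA in these ratios was not tested.

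**Figure D5:**
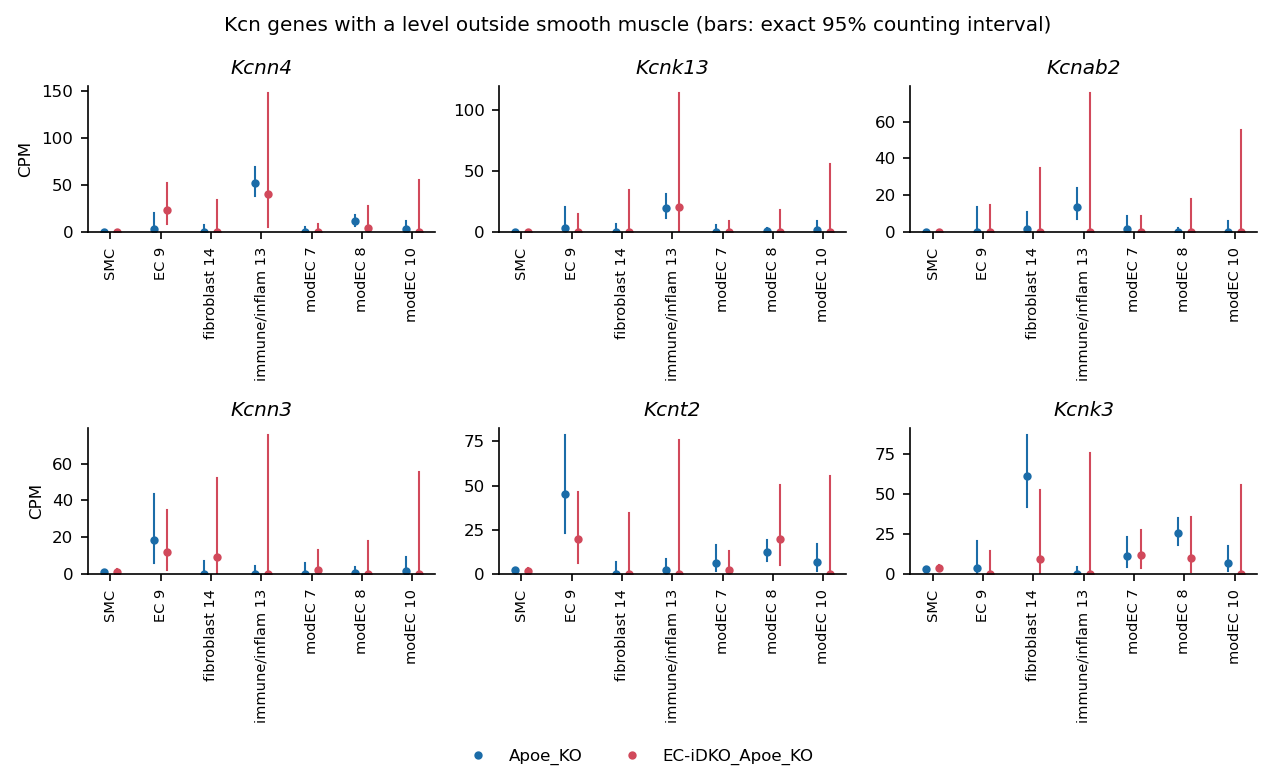
CPM of 6 Kcn genes in smooth muscle and in the clusters outside it, Apoe knockout in blue and double knockout in red, with exact 95% counting intervals on linear axes. Among the populations drawn, which leave out EC cluster 19, the Apoe knockout values of Kcnn4, Kcnk13 and Kcnab2 are highest in immune/inflam cluster 13, at 52.0, 19.7 and 13.9 CPM, those of Kcnn3 and Kcnt2 in EC cluster 9, and that of Kcnk3 in fibroblast cluster 14.

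The modEC clusters carried members of both kinds. Cluster 8 of the Apoe knockout had Kcnk3 at 39 UMIs, 25.7 CPM or 8.45 times (5.02 to 14.5) smooth muscle. Kcne4, also with 39 UMIs, stood at 2.93 times (1.94 to 4.37) and Kcnt2 at 5.10 times, while Kcnab1 and Kcnc4 stood at 0.305 and 0.292 times. No member was called between libraries there among 11 tested (8.04% of all genes higher and 5.1% lower). In modEC cluster 7, Kcnj8 had 69.4 and 64.2 CPM, 2.29 times (1.62 to 3.18) smooth muscle in the Apoe knockout, and Kcnj15 had 150 and 102 CPM; none of 10 members was called there (7.05% of all genes higher and 7.33% lower). In modEC cluster 10 Kcnq1ot1 was called lower from 77 and 2 UMIs, a ratio of 0.232 (0.0276 to 0.866), 1 of 7 members tested (4.52% of all genes), with none higher (7.7%).

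Shares of cells were compared after cells of at least 1000 UMIs were thinned to 1000 UMIs. A Kcnmb1 UMI was found in 19.8% (17.7 to 21.9) of smooth muscle cells in the Apoe knockout versus 15.7% (13.9 to 17.7) in the double knockout, against 60.3% and 17.8% without thinning. In cluster 13, whose macrophage-marked cells should lack this subunit, 10 of 139 Apoe knockout cells (7.19%, 3.50 to 12.8) and 3 of 15 double knockout cells (20%, 4.33 to 48.1) held a UMI. The smooth muscle share of the Apoe knockout thus lay above that of cluster 13. In the double knockout this comparison cannot decide, because cluster 13 had few cells and contractile genes at 65.8% of smooth muscle. In EC cluster 19 of that library contractile genes stood at 15.0% of smooth muscle. Kcnmb1 stood there at 16.65% (3.43 to 48.8), from 3 UMIs. The source of the Kcnmb1 UMIs in cluster 13, free RNA or doublets, was not tested. Kcnj8 was found in 2.46% (1.72 to 3.41) and 4.27% (3.30 to 5.42), and Kcnq3 in 3.52% and 1.27%. Any Kcn UMI was found in 57.2% (54.6 to 59.8) and 53.1% (50.5 to 55.6) of smooth muscle cells. The direction of these shares matched that of the CPM values.

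Of the 15 members with 20 to 99 UMIs over both libraries, several led in 1 population of the Apoe knockout: Kcnk13 and Kcnn4 in cluster 13, Kcnt2, Kcnn3 and Kcnk6 in EC cluster 9. Kcnk6, a tandem-pore channel, had 4 UMIs there, 15.0 CPM. Kcna2 and Kcnj13 led in cluster 14 with 4 and 3 UMIs, Kcnn1 in modEC cluster 7 with 4, Kcnmb4 in the same cluster with 2 and Kcna6 in modEC cluster 10 with 4. Kcnq5 led in smooth muscle cluster 2 with 8, Kcns3 in cluster 3 with 7, Kcnk1 in cluster 12 with 2, and Kcnj11 and Kcnj12 in cluster 16 with 2 and 3. With counts this small the leading cluster is a count and not a pattern. The 9 members with 10 to 19 UMIs were Kcnk7, Kcnd1, Kcnrg, Kcnab2, Kcna5, Kcnf1, Kcnj10, Kcnt1 and Kcnip3.

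The genes whose levels followed a member most closely were sought by Pearson's r of log2(CPM + 1) over 37 cluster and library populations, among 8291 genes. The populations share their libraries and depth, so r is a description. Kcnmb1 was followed by Flna, Dstn, Actn1, Myocd and Cnn1, with r from 0.935 to 0.918. Myocd encodes a coactivator of contractile genes and the others bind actin. Kcnma1 was followed by Slmap, Kank1, Ncam1, Pcdh7 and Mfhas1 with r from 0.826 to 0.803, which is a different set. Kcnj8 was followed by Zfp260, Slc12a4, Fstl3, Nae1 and Cdh11 (0.845 to 0.825), and Kcnq1ot1 by Kdm7a, Pprc1, Ndel1, Sec14l1 and Lcorl (0.735 to 0.686).

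Other genes of membrane potential and calcium handling were counted in smooth muscle by the same rule, beside 9.87% of all genes higher and 7.67% lower. Of 8 calcium entry genes tested, 1 was higher (Cacnb1, 26 and 32 UMIs) and none lower. Cacna1c, the pore of the L-type calcium channel that potassium channels act upon, had 40.2 and 28.4 CPM, a ratio of 0.708 (0.582 to 0.858). Of 11 release and store genes, Pln was higher and Itpr2 lower, and the calcium pump Atp2a2 had 603 and 460 CPM. Of 13 chloride and cation channel genes, Trpv4 (23 and 4 UMIs), Piezo1 (101 and 36) and Scn3a (27 and 4) were lower and none higher. Among 10 ion pumps and 5 channel scaffolds none was called, and among 11 genes of the vasodilator cascade only Ptgir, the prostacyclin receptor, was higher. The median log2 ratios of these lists lay between -0.23 and 0.01, beside -0.13 for the Kcn members and 0.03 for all genes.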

How the data were processed

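Aortas were digested and sequenced as droplet libraries with 3' tags, per the labels' protocols. The protocol adds CD31 microbeads to the suspension, although the label lists all cells. Cell Ranger, Seurat and mm10 are named in the submitters' processing notes; for versions, annotation, strand setting and doublet removal nothing is given in the sources used here. Per cell, the authors deposited UMI counts of each gene, the mitochondrial fraction, and the class and cluster. Cells of the Apoe knockout were deposited as 2 identical copies and counted once, which left 7917 of 10345 rows. The libraries shared 5 barcodes. No doublet caller was run and no cell was removed.

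UMIs were summed per library, class and cluster with Python 3.11.15, numpy 2.4.6, pandas 2.3.3 and scipy 1.17.1. The rule for calls was run on simulated Poisson sums with known ratios. These held counting error only, so they say nothing about variation between libraries or cells. A count of 0 was set against 3 UMIs. Strand use in counting is unknown, so reads of Kcnmb1 and Kcnip1, of Kcnq1ot1 and Kcnq1, and of members that overlap antisense transcripts cannot be told apart. Gene positions are from GENCODE vM21. Whether each library pooled animals is unknown, so nothing separates a genotype from its library.

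Members with at least 100 UMIs over both libraries, and Kcnj8 and Kcnq1ot1 in any case, were described by library and cluster, except 2 members that are not reported here and enter only the sums and counts. Members with 20 to 99 UMIs were given as a group, and the 5 most similar genes were sought for the 3 members with most UMIs and for Kcnj8 among genes with at least 200 UMIs. From each list of related genes up to 4 with most UMIs could be named; other related genes named for a call, and Kcna5, were picked once their values had been seen. The members and lists were chosen with earlier results of these data known. Alternatives were cells of at least 1000 UMIs and under 10% mitochondrial UMIs, thinning, scaling without mitochondrial and ribosomal genes, every deposited row, cluster 15 included, means per cell, equal cluster weights, a ratio of 2 and a minimum of 100 UMIs.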

Additional observations from a re-analysis of the deposited data

Results flagged for a closer look

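In some populations the ratio of double knockout to Apoe knockout of 1 gene went above 1 in one population and below 1 in another, with neither counting interval holding 1. The difference between populations was not tested, and each value comes from 1 library per genotype. Kcnj15 stood at 1.98 (1.45 to 2.71) in smooth muscle cluster 17, at 1.95 (1.46 to 2.60) in cluster 6 and at 0.485 (0.251 to 0.877) in cluster 5. Kcnma1 stood at 0.638 (0.428 to 0.966) in smooth muscle cluster 0 and 0.602 (0.419 to 0.863) in cluster 2, against 3.13 (1.07 to 7.53) in immune/inflam cluster 13, where it rested on 34 and 6 UMIs. Kcnq1ot1 stood at 2.09 (1.31 to 3.38) in EC cluster 9 and 1.63 (1.17 to 2.26) in smooth muscle cluster 6, against 0.657 (0.492 to 0.877) in smooth muscle cluster 2 and 0.232 (0.0276 to 0.866) in modEC cluster 10, the last from 77 and 2 UMIs.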

How the results depend on the processing

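The lower Kcn total of the double knockout kept its direction under every alternative run that could change it. Its whole-library ratio was 0.914 in cells of at least 1000 UMIs and under 10% mitochondrial UMIs and 0.808 as a mean of per-cell CPM, where the smooth muscle ratio was 0.800. The number of members lower in smooth muscle, 4, became 7 with every deposited row (Kcnj13, Kcna5 and Kcnf1 added, from copied cells). The number higher, 1, became 0 at a ratio of 2. Thinning kept Kcnc4 and Kcnq3 as lower, lost Kcnh2 and Kcne4 and called Kcnj8 higher; thinned samples hold fewer UMIs. Kcnq1ot1 fell under 1 as a mean per cell too (0.902), and Kcnma1 stood there at 0.765. Of the single-gene ratios under the alternatives, 94 stayed within their counting interval and 11 moved. The 94 include all ratios with every deposited row, which only copies Apoe knockout cells and so could not move them. The median log2 ratio of all genes was 0.01 to 0.06 over the settings. No paired analysis was possible because each genotype has 1 library. Depth limits the double knockout clusters most: their medians ran from 637 UMIs per cell in smooth muscle cluster 0 and modEC cluster 10 to 3288 in cluster 11.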
